A study of Rattus norvegicus with 10 samples.

Results

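Emx2 and 8 further transcription factors that pattern the cerebral cortex and hippocampus before birth (Emx1, Lhx2, Nr2f1, Nr2f2, Pax6, Zbtb20, Otx1 and Gli3) were read out in the left hippocampus of adult rats. Of the 9 genes, 8 had a row among the 17168 genes of the deposited tables, and all 8 were among the 12161 genes with enough counts to test. Emx1 was not analysed here, since no row matched it by symbol or synonym. Emx2 was chosen by its measured values: the levels of the untreated and treated rats did not overlap. Its difference is therefore given as a description with no test. The other 8 were listed for their role in patterning.

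The study compared 5 untreated and 5 RG2833-treated male rats, all of the TgF-344AD line, a transgenic model of Alzheimer's disease; no wild-type animal is part of the comparison. TgF-344AD rats carry human transgenes of mutant APP and presenilin 1 driven by the mouse prion promoter. The treated rats ate chow to which 750 mg per kg of RG2833, which inhibits 2 enzymes that remove acetyl groups from histones (HDAC1 and HDAC3), had been added, from 5 months of age for 6 months, and the untreated rats ate plain chow. All were perfused at 11 months, and each library came from the hippocampus of 1 rat. The comparison asks what the drug does to hippocampal transcripts in these males.

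In the embryonic forebrain, signals of the Wnt and BMP families from the cortical hem and of the FGF family from the front of the brain set up opposed gradients of transcription factors. Emx2 favours caudal and medial fates such as hippocampus, Nr2f1 caudal and lateral ones, and Pax6 rostral and lateral ones, while Lhx2 keeps cortical progenitors from becoming hem. Gli3, in its repressor form, is needed for the hem itself, and Zbtb20 for the identity of hippocampal pyramidal neurons. In the adult brain several of these factors are known in glia and stem cells: astrocytes express Lhx2, Pax6, Emx2, Zbtb20 and Gli3, and Nr2f2 marks interneurons of caudal ganglionic origin and venous endothelium.

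Total expected counts ran from 15118203 to 18533520 per library. Levels are CPM, counts scaled to a common library total after TMM (trimmed mean of M-values) scaling. In all, 3 libraries stood apart before any comparison. Untreated replicate 2 and RG2833 replicate 1 were rich in choroid plexus RNA, in which Ttr, the transthyretin gene of that epithelium, reached 6929 and 8190 CPM; the remaining 8 libraries had 3.11 to 236 CPM. Untreated replicate 3 had a microglia marker list at a mean log2 CPM of 6.45, with the 4 others of its group at 5.49 to 5.67, and its dentate granule marker list was the lowest of all 10 libraries, at a mean log2 CPM of 4.83. The hippocampal marker lists were detected in every library: the summed CPM was 552 to 1271 for CA1 pyramidal markers, 1148 to 1519 for CA3 and 364 to 637 for dentate granule markers. No list entry was at 0 in all libraries except Tdo2, of the dentate list.

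Emx2, the homeobox factor without which the dentate gyrus fails to form, had untreated levels of 30.8, 27.2, 30.1, 29.3 and 31.3 CPM in replicates 1 to 5. In RG2833 rats it stood at 34.1, 37.6, 44.5, 39.5 and 40.0 CPM. The lowest treated rat thus lay above the highest untreated rat, which is the property Emx2 was picked for. The means were 29.8 ± 1.60 and 39.1 ± 3.79 CPM (SD, n = 5 each), and the fold change on the log2 scale (log2FC, RG2833 over untreated) was 0.40 (SE 0.07). In all, 51 of 12161 tested genes (0.419%) had groups that did not overlap with RG2833 higher, and a further 71 did not overlap with RG2833 lower. The expected counts behind these levels ran from 478 to 696, and none of the 10 was whole, so in each library part of the reads was assigned by RSEM's estimate.

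Lhx2, a LIM-homeobox selector of cortical fate, came closest to Emx2. Its untreated levels were 101, 92.3, 112, 100 and 101 CPM, and its RG2833 levels were 109, 119, 125, 129 and 131 CPM. Of the 5 treated rats, 4 lay above every untreated rat; the exception was RG2833 replicate 1, which lay under untreated replicate 3. The means were 101 ± 6.83 and 122 ± 8.65 CPM (SD, n = 5 each), with a log2FC of 0.27 (SE 0.07). The edgeR quasi-likelihood test gave an unadjusted p of 0.0021, and Lhx2 did not pass after Benjamini-Hochberg adjustment over all genes (adjusted p = 0.841). Lhx2 counts were whole numbers in all 10 libraries. Among the members it had, with Emx2, the tightest groups: the coefficient of variation was 6.75% and 7.07% in untreated and RG2833 rats, against 5.38% and 9.69% for Emx2 and a median over all tested genes of 13.8% and 11.5%. Picking Emx2 for groups that did not overlap favours a small spread, so its coefficients are a description only.

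**Figure D1:**
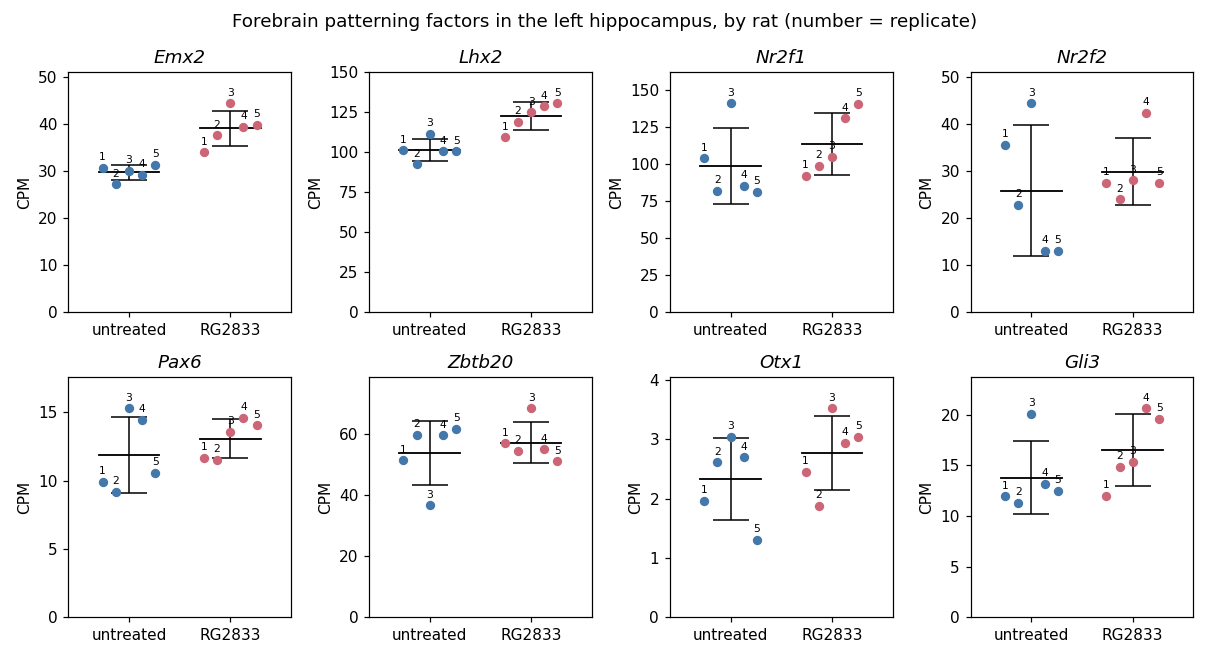
Each panel plots the level of 1 factor in CPM by group, on axes that start at 0; points are single rats numbered by replicate, the long line is the group mean and the bars are the SD (n = 5 each). The 5 RG2833 points of Emx2 sit above all untreated points, those of Lhx2 overlap the untreated range by 1 rat, and for Nr2f1, Nr2f2, Pax6 and Gli3 untreated replicate 3 is the highest untreated rat.

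Gli3, the zinc finger effector of Hedgehog signalling that acts mainly as a repressor in the pallium, varied more from rat to rat. Untreated replicates 1 to 5 had 11.9, 11.3, 20.1, 13.2 and 12.5 CPM, and RG2833 replicates 1 to 5 had 12.004, 14.8, 15.4, 20.6 and 19.6 CPM. Untreated replicate 3 lay between the 2 highest treated rats, and RG2833 replicate 1 lay within the range of the other untreated rats. The log2FC was 0.26 (SE 0.19; edgeR adjusted p = 0.893). Leaving out untreated replicate 3 gave 0.43 and leaving out RG2833 replicate 4 gave 0.17, and the test was not passed in either case.

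Pax6, the paired-box factor of the lateral pallium and of radial glia, was at 9.92, 9.17, 15.3, 14.4 and 10.6 CPM in untreated and at 11.7, 11.5, 13.6, 14.6 and 14.04 CPM in RG2833 rats. Untreated replicate 3 was the highest of all 10 rats and untreated replicate 4 lay between the 2 highest treated ones, so the groups overlapped. The log2FC was 0.14 (SE 0.15; edgeR adjusted p = 0.929), with 0.25 when untreated replicate 3 was left out and 0.06 when untreated replicate 2 was.

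The nuclear receptors Nr2f1 and Nr2f2 (COUP-TFI and COUP-TFII) are paralogs, and none of their expected counts was whole, so reads they share may have been divided by estimate. Nr2f1 was at 104, 82.1, 141, 85.2 and 81.2 CPM in untreated and at 92.3, 98.9, 105, 131 and 141 CPM in RG2833 rats. Its highest untreated rat, replicate 3, lay just above its highest treated rat, replicate 5. The log2FC was 0.20 (SE 0.17; edgeR adjusted p = 0.916), with 0.37 when untreated replicate 3 was left out and 0.12 when RG2833 replicate 5 was. Nr2f2 spread the most among the members, 3.42-fold from lowest to highest library: it was at 35.6, 22.8, 44.4, 12.98 and 13.1 CPM in untreated and at 27.5, 24.0, 28.0, 42.3 and 27.5 CPM in RG2833 rats. Untreated replicates 2, 4 and 5 lay under every treated rat, while replicate 1 lay above 4 of the 5 treated ones and replicate 3 above all 5. The log2FC of Nr2f2 was 0.21 (SE 0.34; edgeR adjusted p = 0.958). It was 0.50 without untreated replicate 3, 0.04 without untreated replicate 4 and 0.59 with limma-voom's weighted libraries, and did not pass in any of these.

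The ratio of Nr2f1 to Nr2f2 CPM within a library was 2.92, 3.60, 3.18, 6.56 and 6.21 in untreated and 3.36, 4.12, 3.75, 3.09 and 5.12 in RG2833 rats. Since the ratio is taken between genes without a length correction, only its spread over rats is of use, and the groups overlapped (two-sided exact permutation p = 0.619, n = 5 each).

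Zbtb20, the BTB zinc finger factor of the hippocampal primordium, was at 51.4, 59.7, 36.7, 59.6 and 61.7 CPM in untreated and at 56.9, 54.6, 68.4, 55.1 and 51.0 CPM in RG2833 rats. Here untreated replicate 3 was the lowest of all 10 libraries rather than among the highest, and 1 of the 5 treated rats lay above the untreated median. The log2FC was 0.09 (SE 0.14; edgeR adjusted p = 0.958), with -0.02 when untreated replicate 3 was left out, 0.02 when RG2833 replicate 3 was, and 0.02 with limma-voom's weighted libraries.

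Otx1, a homeobox factor of deep-layer cortical neurons, was the least counted member, with 24.2 to 55.4 expected counts per library. Its levels were 1.96, 2.61, 3.04, 2.69 and 1.303 CPM in untreated and 2.45, 1.87, 3.52, 2.94 and 3.04 CPM in RG2833 rats, and the groups overlapped. The log2FC was 0.25 (SE 0.25; edgeR adjusted p = 0.921), with 0.10 when untreated replicate 5 was left out and 0.41 with limma-voom's weighted libraries. Its paralog Otx2, a factor of choroid plexus epithelium, had 606 and 435 expected counts in the 2 libraries rich in choroid plexus RNA and 1 to 86 in the other 8. Otx1 in those 2 libraries, at 2.61 and 2.45 CPM, lay within the range of the rest.

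By fold change the measured members ranked Emx2, Lhx2, Gli3, Otx1, Nr2f2, Nr2f1, Pax6 and Zbtb20, from 0.40 to 0.09 on the log2 scale; from Lhx2 down, neighbours in this order differed by less than the SE of either. Apart from Emx2, whose direction its selection fixed, 7 of 7 log2FC values were above 0, with a median of 0.21; of all tested genes 46.5% were above 0, and their median was -0.01. Of the 7 members other than Emx2, 0 passed the edgeR test at an adjusted p of 0.05, as did 0% of all genes, and 0 of the 7 passed in DESeq2 or limma-voom. DESeq2 passed 7 genes of the whole table and limma-voom 0. At an unadjusted p under 0.05 there was 1 of the 7, Lhx2, where 5.66% of all genes were under that value and 2.94% were under it and higher in RG2833.

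**Figure D2:**
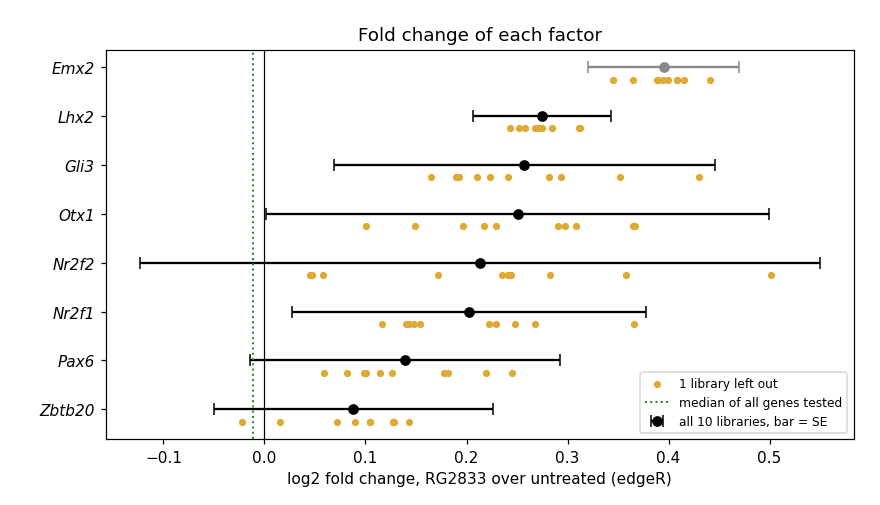
The x axis is the log2 fold change of RG2833 over untreated, 1 row per factor; dark points are the edgeR estimates from all 10 libraries with bars of 1 SE (grey for Emx2, which was picked on this difference), and yellow points leave out 1 library each; the dotted line is the median of all genes. The Zbtb20 points reach below 0, those of Nr2f2 spread from 0.04 to 0.50, and those of Lhx2 lie between 0.24 and 0.31.

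The 2 libraries rich in choroid plexus RNA also held the lowest Emx2 of their groups, at 27.2 and 34.1 CPM. The same was true of Lhx2, at 92.3 and 109 CPM, and of Gli3, at 11.3 and 12.004 CPM. Over all genes tested, 8.43% were lowest of their group in both of these libraries. Without these 2 libraries the log2FC was 0.40 for Emx2, 0.27 for Lhx2 (edgeR adjusted p = 0.946, with 0.246 to 1.00 over all alternatives) and 0.28 for Gli3 (edgeR adjusted p = 0.962, with 0.312 to 1.00), close to the values from all 10.

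The co-variation of the factors among rats of a group did not enter the choice of members and was tested. Log2 CPM values were taken as deviations from the group mean and correlated over the 10 libraries, with two-sided exact permutation within groups (14400 permutations, smallest possible p 6.94e-05) and adjustment over the 28 pairs. Of the 28 pairs, 22 were positive and 6 passed. Lhx2 and Gli3 had Pearson r = 0.92 and Spearman rho = 0.87 (permutation p = 0.000833 and 0.00472, adjusted 0.00778 and 0.0441), and r = 0.77 without the 2 libraries farthest from the median. Lhx2 and Nr2f1 had r = 0.86 and rho = 0.92 (permutation p = 0.000625 and 0.00125, adjusted 0.00778 and 0.0175), and r = 0.71 without the 2 farthest.

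Gli3 was also tied to Nr2f1 and to Pax6. For Nr2f1 and Gli3, r was 0.90 and rho 0.81 (permutation p = 0.00556 and 0.0125, adjusted 0.0311 and 0.0875), and r was 0.73 without the 2 farthest. For Pax6 and Gli3, r was 0.79 and rho 0.89 (permutation p = 0.000208 and 0.000903, adjusted 0.00583 and 0.0175), and r was 0.84 without the 2 farthest. For Lhx2 and Pax6, r was 0.74 and rho 0.66 (permutation p = 0.00417 and 0.0370, adjusted 0.0292 and 0.207), and r was 0.63 without the 2 farthest. The members that varied together were thus Lhx2, Nr2f1, Gli3 and Pax6, although Nr2f1 and Pax6 did not pass as a pair (r = 0.62, adjusted permutation p = 0.189).

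Zbtb20 ran the other way. With Nr2f1 it had r = -0.83 and rho = -0.64 (permutation p = 0.0106 and 0.0678, adjusted 0.0496 and 0.282), and r = -0.44 without untreated replicate 3 and RG2833 replicate 5, on which the pair therefore rests; with upper-quartile factors its adjusted permutation p was 0.0616. Nr2f1 and Nr2f2 had r = 0.75 (adjusted permutation p = 0.0689). Emx2 passed with no other member: its highest r was 0.69, with Lhx2 (rho = 0.65, permutation p = 0.0443 and 0.0705, adjusted 0.142 and 0.282; 0.68 without the 2 farthest), and its r with Nr2f2 was 0.07. The number of pairs that passed changed as single libraries were left out: it was 0 without untreated replicate 3, 1 without untreated replicate 2, and 3 without RG2833 replicate 1, 4 or 5. Fewer permutations and a larger smallest possible p also bear on these counts.

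**Figure D3:**
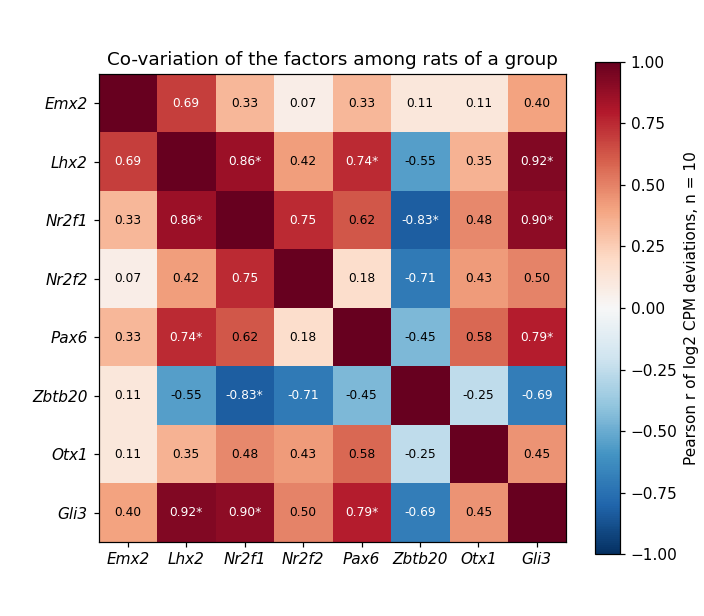
Each cell gives Pearson r between 2 factors over the 10 libraries, as deviations of log2 CPM from the group mean; an asterisk marks an adjusted permutation p under 0.05. The red cells with asterisks lie among Lhx2, Nr2f1, Pax6 and Gli3, the Zbtb20 row is mostly blue, and the Emx2 row holds no asterisk.

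The promoters of these 4 co-varying factors are shown as RefSeq gives them on the GRCr8 assembly, from 250 bases before to 50 after the gene's start; they are printed because these members varied together. Of the 9 listed genes, 5 had an entry (Emx1, Lhx2, Nr2f1, Pax6 and Gli3). Capitals mark the GC box GGGCGG on either strand, overlapping matches included.
Lhx2, chr3:42535494-42535793, plus strand: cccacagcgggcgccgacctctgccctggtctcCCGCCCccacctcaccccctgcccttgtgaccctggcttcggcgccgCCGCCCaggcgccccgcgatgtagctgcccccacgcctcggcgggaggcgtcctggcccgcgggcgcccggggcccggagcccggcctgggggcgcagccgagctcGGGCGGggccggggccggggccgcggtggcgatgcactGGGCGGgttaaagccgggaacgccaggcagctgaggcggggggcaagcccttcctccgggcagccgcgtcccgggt
Nr2f1, chr2:9785875-9786174, minus strand: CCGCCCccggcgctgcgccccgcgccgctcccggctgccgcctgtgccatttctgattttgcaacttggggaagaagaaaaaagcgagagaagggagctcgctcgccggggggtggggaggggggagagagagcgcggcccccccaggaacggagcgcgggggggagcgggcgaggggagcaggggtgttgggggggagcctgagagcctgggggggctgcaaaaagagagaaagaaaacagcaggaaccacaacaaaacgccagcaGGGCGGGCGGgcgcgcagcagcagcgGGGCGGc
Gli3, chr17:54405149-54405448, minus strand: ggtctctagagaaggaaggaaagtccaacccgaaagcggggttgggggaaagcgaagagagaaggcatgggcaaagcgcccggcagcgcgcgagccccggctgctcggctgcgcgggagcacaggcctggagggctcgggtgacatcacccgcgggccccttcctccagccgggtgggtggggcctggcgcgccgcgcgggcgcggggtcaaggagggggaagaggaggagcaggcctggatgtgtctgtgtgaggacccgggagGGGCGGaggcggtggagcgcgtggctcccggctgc
Pax6, chr3:112590346-112590645, plus strand: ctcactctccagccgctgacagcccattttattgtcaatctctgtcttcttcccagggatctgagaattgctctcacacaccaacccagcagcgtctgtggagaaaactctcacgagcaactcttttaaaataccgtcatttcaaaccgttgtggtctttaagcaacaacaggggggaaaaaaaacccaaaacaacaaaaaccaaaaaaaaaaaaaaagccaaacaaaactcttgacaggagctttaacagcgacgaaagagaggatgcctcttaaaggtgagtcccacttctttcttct

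The promoters were not alike in composition. The GC box was found 4 times for Lhx2, 4 times for Nr2f1 (of which 2 overlap), once for Gli3 and not for Pax6; 33.1% of 33469 RefSeq promoters of that length held at least 1, and 4.64% held 4 or more. G and C made up 80.3% of the Lhx2 window, 72.0% of Gli3, 70.3% of Nr2f1 and 43.0% of Pax6, against a median of 51.7% over all promoters. Of the other motifs searched on both strands, the CRE half-site TGACG (in 21.2% of promoters) matched once, in Pax6, and the Gli core CCACCCA (in 8.87%) once, in Gli3. The E-box CACGTG (6.42%), the homeodomain core TAATTA (5.36%) and the nuclear receptor half-site AGGTCA (16.2%) were not in the 4 windows. These are matches of letters only.

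Since whole tissue was sequenced, each member was compared with marker lists of the cell types the dissection could hold; in such samples fewer cells of a type and less RNA per cell cannot be told apart. Over 8 members and 13 lists, 104 relations were computed in the same way, and 6 passed. Gli3 followed the astrocyte list most closely, with r = 0.99 and rho = 0.99 (permutation p = 0.000278 and 0.000208, adjusted 0.0144 and 0.0217), and r = 0.99 without the 2 libraries farthest from the list's median. Lhx2 followed it with r = 0.95 and rho = 0.88 (permutation p = 0.000556 and 0.00361, adjusted 0.0144 and 0.0751; 0.91 without the 2 farthest). Nr2f1 had r = 0.90 and rho = 0.82 (permutation p = 0.00278 and 0.0101, adjusted 0.0481 and 0.151; 0.74 without the 2 farthest). Pax6 had r = 0.77 and rho = 0.88 (permutation p = 0.000486 and 0.00160, adjusted 0.0144 and 0.0554; 0.63 without the 2 farthest). The same 4 factors each had positive values with 5 further lists, and none of those relations passed: the microglia, neocortex, endothelial, interneuron and neural stem cell lists. With the microglia list r was 0.92 for Gli3, 0.89 for Nr2f1, 0.79 for Lhx2 and 0.71 for Pax6 (adjusted permutation p = 0.0560, 0.0800, 0.0800 and 0.0920), and 0.84, 0.60, 0.63 and 0.46 without the 2 farthest. With the neocortex list r was 0.86, 0.81, 0.76 and 0.79 in that order (adjusted permutation p = 0.0560, 0.0800, 0.111 and 0.0738), and 0.78, 0.57, 0.54 and 0.77 without the 2 farthest. With the endothelial and mural list r was 0.77, 0.73, 0.53 and 0.48 (adjusted permutation p = 0.111, 0.129, 0.340 and 0.393), and 0.44, 0.19, -0.04 and 0.06 without the 2 farthest. With the interneuron and neural stem cell lists r ran from 0.18 to 0.69. The 4 factors also had negative values with neuronal lists, and none of the following passed. With the dentate granule list r was -0.81, -0.70, -0.68 and -0.72 for Gli3, Nr2f1, Lhx2 and Pax6, and -0.58, -0.25, -0.30 and -0.34 without the 2 farthest. With the CA3 list r ran from -0.80 to -0.58 (-0.33 to 0.11 without the 2 farthest), and with the neuron-wide list from -0.69 to -0.40 (-0.72 to -0.20).

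The 2 other relations that passed were with the thalamus list, and both were negative. Lhx2 had r = -0.80 and rho = -0.84 with it (permutation p = 0.000486 and 0.000417, adjusted 0.0144 and 0.0217; -0.87 without the 2 farthest), and Nr2f1 had r = -0.83 and rho = -0.78 (permutation p = 0.00271 and 0.0134, adjusted 0.0481 and 0.160; -0.75 without the 2 farthest). With upper-quartile factors in place of TMM the adjusted permutation p of both was 0.0583. The number of relations that passed was 0 without untreated replicate 2, untreated replicate 3 or RG2833 replicate 1, 1 without RG2833 replicate 5, 3 without untreated replicate 4 or RG2833 replicate 4, and 11 without RG2833 replicate 3. The r of Gli3 with the astrocyte list stayed between 0.990 and 0.994 as each library was left out in turn, but its adjusted permutation p was 0.144 without untreated replicate 2 or 3 and 0.0722 without RG2833 replicate 1. Leaving out a library also leaves fewer permutations and a larger smallest possible p. These counts and p-values are thus not on the same footing as those from all libraries.

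Emx2 did not pass with any list. Its r with the astrocyte list was 0.46 and its rho 0.42 (permutation p = 0.223 and 0.261, adjusted 0.408 and 0.460; 0.57 without the 2 farthest). Its strongest relation was with the meninges list, at r = -0.68 and rho = -0.66 (permutation p = 0.0105 and 0.0466, adjusted 0.0800 and 0.255), and r was -0.29 without the 2 farthest. With the thalamus list r was -0.58 and rho -0.59 (permutation p = 0.0355 and 0.0795, adjusted 0.137 and 0.331), and r was -0.74 without the 2 farthest. Zbtb20 had negative values, r = -0.66 with the astrocyte list (adjusted permutation p = 0.173) and r = -0.89 with the microglia list (0.0800), and r = 0.83 with the dentate granule list (0.129); without the 2 farthest libraries of each list these were -0.06, -0.47 and 0.46. Nr2f2 had r = -0.82 with the oligodendrocyte list (adjusted permutation p = 0.117). Otx1 had r = 0.42 with the astrocyte list (0.435).

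**Figure D4:**
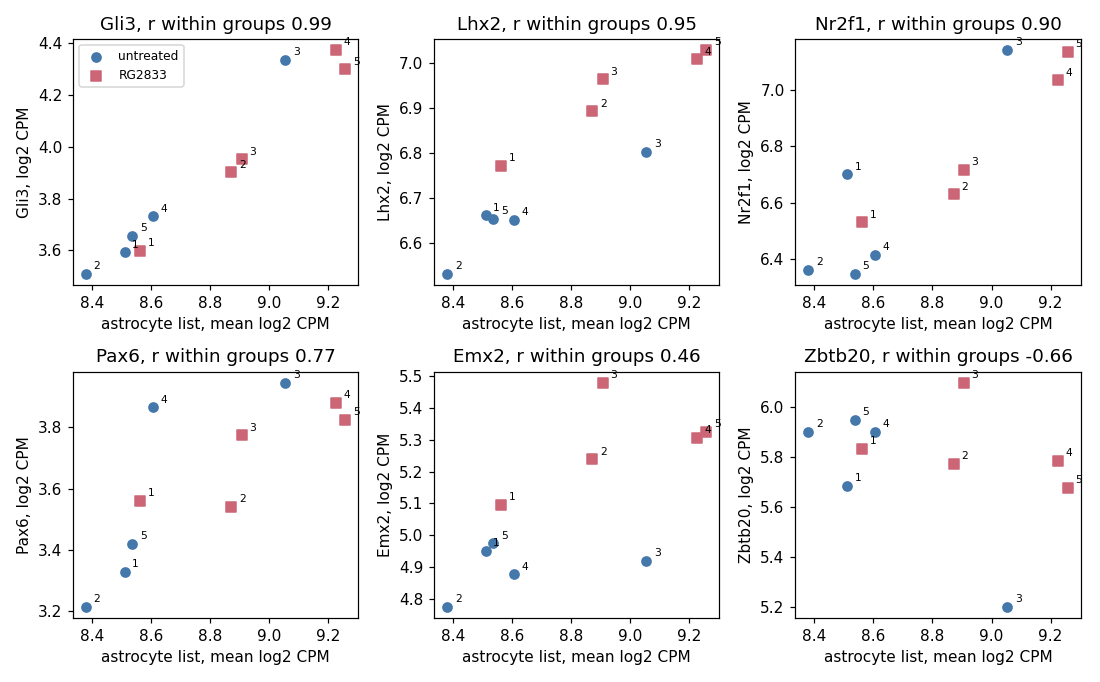
Each panel plots the log2 CPM of 1 factor against the mean log2 CPM of the 15 astrocyte markers, with circles for untreated and squares for RG2833 rats, numbered by replicate. Gli3 lies along a single line through both groups, and the RG2833 squares of Emx2 lie above all untreated circles, the property it was picked for.

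The astrocyte list was itself higher in RG2833 rats on average. All 15 of its 15 genes had a log2FC above 0, with a median of 0.34, and 4 had an edgeR unadjusted p under 0.05 (Gja1, Gjb6, Fgfr3 and Glul); over all tested genes, 46.5% were above 0 and 5.66% under that p. In the list 0 were at an adjusted p under 0.05 in edgeR, DESeq2 or limma-voom. Among the other lists, 10 of 12 endothelial and mural genes and 8 of 10 microglia genes were above 0, with medians of 0.13 and 0.07 that ran from 0.02 to 0.31 and from 0.01 to 0.28 as each library was left out. Of the neuron-wide markers 8 of 10 were below 0, with a median of -0.10 (-0.17 to -0.04). The mean log2 CPM of that neuron-wide list differed by only -0.02 between groups (two-sided exact permutation p = 0.810). Neuronal lists did not share a direction: 7 of 9 CA1 pyramidal genes were above 0, with a median of 0.11 (0.01 to 0.34), but 1 of 8 dentate granule and 3 of 9 CA3 genes were. The most abundant genes of the astrocyte list were Gfap, at 2094 to 2582 CPM in untreated and 2184 to 2952 CPM in RG2833 rats, and S100b, at 1503 to 2838 and 1857 to 3078 CPM. The summed CPM of the astrocyte list ran from 9487 to 14667 in untreated and from 10894 to 16683 in RG2833 rats. The list's mean log2 CPM was 8.62 ± 0.26 and 8.96 ± 0.29 (SD, n = 5 each; two-sided exact permutation p = 0.0952, adjusted 0.930 over 20 lists), and the groups overlapped. The part of astrocyte RNA in the members' differences was not tested.

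The members were also measured against the astrocyte list within each library. The log2 CPM of Emx2 minus that of the list averaged -3.72 ± 0.24 in untreated and -3.68 ± 0.24 in RG2833 rats, a difference of 0.04, and the groups overlapped. The difference was 0.01 for Nr2f2 and below 0 for the other 6, at -0.07 for Lhx2, -0.08 for Otx1, -0.09 for Gli3, -0.13 for Nr2f1, -0.19 for Pax6 and -0.24 for Zbtb20. The groups overlapped for each. For Pax6 and Zbtb20 the difference was larger in size than their log2FC and of the opposite sign. Each of these differences carries the list's own group difference of 0.35. Subtracting takes a member to move with the list in equal steps, which Emx2 (r = 0.46) and Zbtb20 (r = -0.66) did not do within groups. Emx2 was also picked on its group levels. The subtraction therefore cannot show the part of astrocyte RNA, which was not tested.

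The genes whose pattern was most like that of Emx2 among rats of a group were looked up over 9771 named genes with a mean of at least 5 CPM. The 5 highest were Kdm8 (r = 0.90, rho = 0.89), Nsun5 (0.89, 0.77), Iba57 (0.89, 0.90), Ppm1h (0.88, 0.83) and Myt1l, a neuronal zinc finger factor (0.88, 0.94). The 3 lowest were Rsph1 (r = -0.94, rho = -0.94), Nudc (-0.93, -0.83) and Zmynd10 (-0.93, -0.95); Rsph1 and Zmynd10 encode parts or assembly factors of motile cilia. None passed after adjustment over those genes (permutation p from 0.000139 to 0.00604 for r and from 0.000208 to 0.0190 for rho, adjusted 0.339 to 0.476 for r). Without RG2833 replicates 1 and 3, the libraries farthest from the median of Emx2, r was 0.91 for Myt1l and 0.63 for Iba57, the highest and lowest of the 5, and it was -0.91 for Rsph1 and -0.97 for Zmynd10. Zmynd10 ran from 2.175 to 18.03 CPM over the 10 libraries, and Rsph1 from 2.94 to 11.1 CPM. Lhx2, the member nearest to Emx2, ranked 118 of the 9771.

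The wider patterning network was described by 6 lists of 128 genes, of which 117 were in the tables and 103 were tested. Of the 103, 53 were higher and 50 lower in RG2833, with a median log2FC of 0.01. At an edgeR unadjusted p under 0.05 there were 10 (9.71%), 6 higher and 4 lower, beside 5.66% of all genes, and at an adjusted p under 0.05 there were 0, in DESeq2 and limma-voom too.

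Among the secreted signals of the hem, antihem and rostral forebrain, 4 of 14 tested were higher and 10 lower, with a median of -0.11. The median was -0.02 without untreated replicate 2, where the list stood highest, -0.04 without untreated replicate 5, -0.17 when untreated replicate 1 was left out and -0.18 when RG2833 replicate 1 was. The 2 at an unadjusted p under 0.05 were Wnt7b, a Wnt ligand of cortical neurons, with a log2FC of 0.38 (SE 0.15), and Rspo1, an enhancer of Wnt signalling that is also on the neocortex marker list, with 0.60 (SE 0.23). Rspo1 was at 5.27 to 13.5 CPM in untreated and 10.2 to 15.98 CPM in RG2833 rats, and Wnt7b at 18.7 to 30.2 and 24.5 to 34.8 CPM. The largest difference in the list was that of Wnt5a, at 1.67 to 4.51 and 1.04 to 3.29 CPM (log2FC -0.64, SE 0.35). In edgeR these 3 each had an adjusted p of 0.841.

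Of the receptors and effectors of these signals, 18 of 24 were higher and 6 lower, with a median of 0.07, which was 0.04 without untreated replicate 1 or 4 and 0.10 without RG2833 replicate 2. Fzd9, a Frizzled receptor for Wnt ligands, was at 19.3 to 23.8 CPM in untreated and 22.5 to 33.5 CPM in RG2833 rats, with a log2FC of 0.44 (SE 0.11; edgeR adjusted p = 0.841). Fgfr3, an FGF receptor that is also one of the astrocyte markers, was at 79.5 to 153 and 106 to 181 CPM (log2FC 0.52, SE 0.20; edgeR adjusted p = 0.841). In both genes the ranges of the groups overlapped. The summed CPM of the 24 genes did not: it was 1382 to 1422 in untreated and 1468 to 1623 in RG2833 rats, while their mean log2 CPM did overlap (two-sided exact permutation p = 0.246, adjusted 0.930 over 20 lists, n = 5 each). The sum was looked at after the data were seen and was not tested.

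In the Hedgehog pathway, which sets the balance of Gli3 repressor and activator, 4 of 10 tested genes were higher and 6 lower, with a median of -0.03 and 0 at an unadjusted p under 0.05. The direction turned on single libraries: without untreated replicate 3, 7 of 10 were higher with a median of 0.11. Leaving out RG2833 replicate 2 or 3 gave a median of 0.01. It was -0.09 without untreated replicate 4 or RG2833 replicate 4, -0.11 without RG2833 replicate 5, and -0.05 and -0.02 when replicate 1 of the untreated or of the RG2833 rats was left out. The largest difference was that of Gli2, at 3.23 to 5.91 CPM in untreated and 3.97 to 7.75 CPM in RG2833 rats (log2FC 0.39, SE 0.21; edgeR adjusted p = 0.841).

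Of 31 other pallial and hippocampal factors, 15 were higher and 16 lower, with a median of -0.01. Leaving out 1 library moved the median between -0.12 (untreated replicate 3) and 0.07 (untreated replicate 2), and it was above 0 in 7 of the 10 cases, all but those of untreated replicates 3 and 4 and RG2833 replicate 3. Nfia, a nuclear factor I gene that drives astrocyte formation, was at 60.8 to 67.7 CPM in untreated and 61.6 to 87.8 CPM in RG2833 rats (log2FC 0.23, SE 0.09). Rorb, a marker of layer IV neurons, was at 10.2 to 19.3 and 12.3 to 23.5 CPM (log2FC 0.47, SE 0.21). Zic1, a zinc finger factor that is also on the thalamus and meninges lists, was at 4.90 to 26.7 and 3.53 to 11.7 CPM (log2FC -1.22, SE 0.52). On those marker lists, 2 of 10 thalamus genes and 0 of 11 meninges genes had a log2FC above 0, with medians of -0.27 and -0.94. The thalamus median ran from -0.30 to -0.16 (without RG2833 replicate 5; -0.17 when untreated replicate 4 was dropped) as each library was left out. The meninges values rest on untreated replicate 2, where the list stood at a mean log2 CPM of 5.41 against 2.40 to 3.30 in the 4 other untreated rats; without that library 6 of the 11 genes were above 0, the median was 0.09, and the Zic1 log2FC was -0.90 (SE 0.52; edgeR adjusted p = 1.00, with 0.324 to 1.00 as each library was left out). The Zic1 log2FC moved as far, to -0.89 (SE 0.52; edgeR adjusted p = 0.931), without untreated replicate 4. In that library the meninges list stood at a mean log2 CPM of 2.91 and the thalamus list at 3.76. The part of meningeal or thalamic RNA in the Zic1 difference was not tested. Six3, a homeobox factor of the ventral forebrain, was at 0.52 to 4.97 and 0 to 2.39 CPM (log2FC -2.16, SE 0.93). The edgeR adjusted p was 0.841 for the 4, and their ranges overlapped.

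Of 10 subpallial factors, 3 were higher and 7 lower, with a median of -0.17. Leaving out untreated replicate 4 gave a median of -0.06 and leaving out untreated replicate 3 gave -0.10, and 1 of 10 was higher without untreated replicate 2 or RG2833 replicate 5. Nkx2-1, the factor of the medial ganglionic eminence, was at 0.71 to 4.59 CPM in untreated and 0.57 to 1.151 CPM in RG2833 rats (log2FC -1.25, SE 0.49; edgeR adjusted p = 0.841). Among 14 cofactors, 9 were higher and 5 lower, with a median of 0.07, which was 0.02 without RG2833 replicate 5 and 0.03 without untreated replicate 2. Ldb1, the adaptor through which Lhx2 and other LIM-homeodomain proteins form complexes, was at 64.7 to 75.7 and 60.8 to 64.99 CPM (log2FC -0.13, SE 0.06; edgeR adjusted p = 0.841). Lmo1, a LIM-only protein that competes for Ldb1, had the largest difference of that list, 0.20 (SE 0.22; edgeR adjusted p = 0.932).

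**Figure D5:**
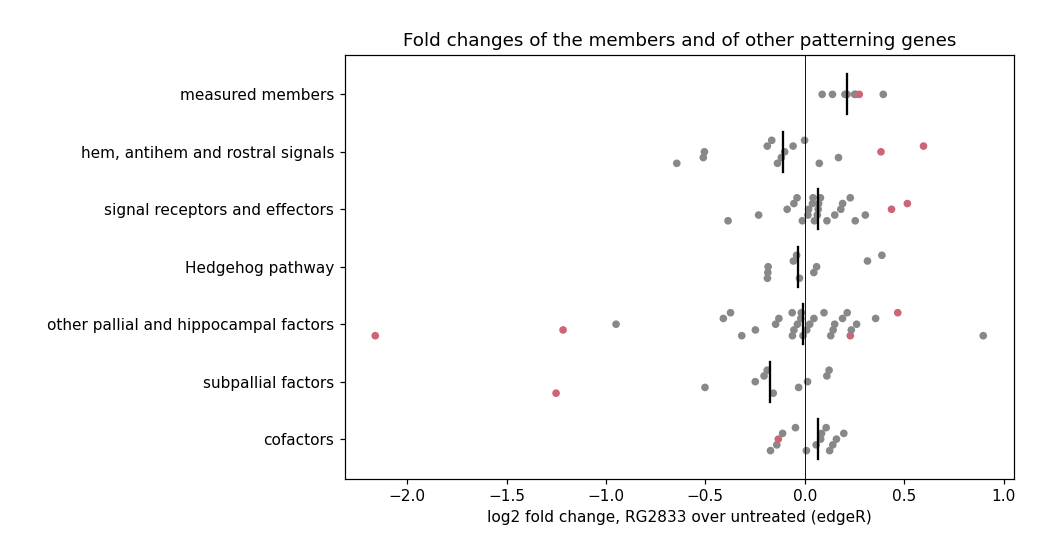
Each point is a gene, placed by its log2 fold change of RG2833 over untreated (edgeR), in rows for the 8 measured members and the 6 lists; red points have an unadjusted p under 0.05 (Emx2 was not tested) and black bars are medians. The members' median, taken without Emx2, is 0.21, and the list medians run from -0.17 to 0.07.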

How the data were processed

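RNA from the left hippocampus of 10 rats was made into mRNA libraries that keep strand, per the labels' protocols. Per the submitters' processing notes, bcl2fastq 2.17, Bowtie2 2.1.0, RSEM 1.2.15 and edgeR were used with genome build rn6; their order, the annotation and any filter are not given in the sources used here. The authors deposited RSEM expected counts per gene, of which 11.6% were not whole, and a table of TMM-scaled CPM signal. In each library, that deposited signal came in steps: dividing by the worth of 1 read gave whole reads for 100% of nonzero values, within 0.1 of a read. At least 99.9% of the reads so recovered equalled the rounded expected counts, and the edgeR test on the recovered reads, added after the data were seen, passed 0 genes, with 688 at an unadjusted p under 0.05. The members' CPM printed here differ from the authors' by at most 2.94%; the factors were computed here after filtering.

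Counts were rounded and tested across all genes with edgeR 4.0.16 in R 4.3.3 (filterByExpr, minimum count 10 and minimum total 15; TMM; robust quasi-likelihood F test; Benjamini-Hochberg over 12161 genes; threshold 0.05). DESeq2 1.42.0 and limma 3.58.1 served as alternatives. SEs were taken from the F statistic. The prior count of log2 CPM was 2. Single values were compared by exact permutation over 252 regroupings, with a smallest p of 0.00794. The labels do not say that the rats come from separate litters or cages, so the p-values take these rats as independent, which could not be checked. The fits were tested on simulated data.

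The members and gene lists were chosen with earlier results of these data known. Planned were 36 pairs of 9 members; without Emx1 there were 28. The choroid plexus list entered no correlation, since 2 libraries stand far from the rest. Of 283 distinct list entries, 264 matched the tables, 6 of them by a synonym, and 19 did not. Genes named are the 9 members; in each pathway list those at an unadjusted p under 0.05 and the one with the largest absolute log2 fold change; the 5 genes most and 3 least like Emx2; and the 2 most abundant of a marker list. Otx2 and the Gja1, Gjb6, Glul and Tdo2 markers were named after their values were seen, and leaving out libraries for the lists and for Zic1 was added then too.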

Additional observations from a re-analysis of the deposited data

Results flagged for a closer look

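The values below each stand apart from the 4 others of their group, by a gap to the nearest that exceeds 0.71 of the group's range. Of 58 groups of 5 values, 5 did so, where chance flags about 1 in 20, or 2.9. Nr2f2 in RG2833 replicate 4 was at 42.3 CPM, against 24.0 to 28.0 CPM in the other RG2833 rats. Gli3 in untreated replicate 3 was at 20.1 CPM, while the remaining untreated rats had 11.3 to 13.2 CPM. The microglia list in the same library was at a mean log2 CPM of 6.45, against 5.49 to 5.67. The list of hem, antihem and rostral signals was at 3.96 in untreated replicate 2, against 3.33 to 3.46, and the choroid plexus list was at 7.36 in RG2833 replicate 1, against -0.63 to 1.54.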

How the results depend on the processing

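The number of genes at an adjusted p under 0.05 was 0 with all libraries and became 7 in DESeq2; it was 0 in each fit that left out a library. Under 0.05 before adjustment there were 688 genes; these became 1263 in limma-voom with sample weights, 401 with the replicate block, and 375 (without RG2833 replicate 4) to 1732 (without untreated replicate 3) as libraries were left out. Same-numbered rats did not deviate together (r from -0.49 to -0.03 over genes). The labels do not say whether the numbers pair the rats, and these r values cannot settle it. The replicate block changed no call of a member. Apart from Emx2, whose direction its selection fixed, and Zbtb20, the members kept a log2 fold change above 0 in all 19 alternatives, and none of the 7 tested passed in any. The Zbtb20 log2 fold change ran from -0.022 (without untreated replicate 3) to 0.14 as libraries were left out. Pairs of members that passed ran from 0 to 6, and relations to marker lists from 0 to 11, as libraries were left out, which also leaves fewer permutations. Both numbers stayed within 1.5 times of 6 with a prior count of 0.5 or upper-quartile factors. No list level passed in any setting. The cause of these changes was not tested. By counts, depth limits Otx1 most among the members, although the SE of Nr2f2 was larger (0.34 against 0.25).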
